A study of Mus musculus with 2 samples.

Results

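Aldh3a1, Tkt, Aqp5, Aqp3 and Clu are 5 of the 32285 genes listed in both libraries, and were taken by symbol. Aldh3a1 lies on chromosome 11 (chr11:61207537-61218421, plus strand), Tkt and Clu on chromosome 14 (chr14:30548359-30574720 and chr14:65968483-65981547, both plus strand), Aqp5 on chromosome 15 (chr15:99590782-99594829, plus strand) and Aqp3 on chromosome 4 (chr4:41092722-41098183, minus strand). All positions are GRCm38, and all 5 genes are annotated as protein coding. Single-cell RNA sequencing with the 10x Genomics system was done on mouse cornea and limbus, the rim where the corneal epithelium is renewed, after most conjunctiva had been dissected away. There was 1 library labelled Pax6 +/- (heterozygous) and 1 labelled wild type. The Pax6 protein is a transcription factor that the developing and adult eye depends on. The series text names 2 mice of each genotype, while the labels give neither the Pax6 allele, the strain, the age nor the sex, nor whether mice were pooled. With 1 library per genotype no difference below was tested against replicates, and every interval covers counting error only.

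Aldh3a1 oxidises aldehydes such as those formed by lipid peroxidation under ultraviolet light. Tkt, transketolase, links the pentose phosphate pathway to glycolysis. Both proteins are so plentiful in the mouse corneal epithelium that they have been called corneal crystallins. Aqp5 is a water channel of the corneal epithelium and of secretory glands, whereas Aqp3 passes water and glycerol and is found in basal layers of surface epithelia. Clu encodes clusterin, a secreted chaperone that binds unfolded proteins outside cells.

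After filtering, the library labelled heterozygous held 9542 cells with a median of 12537 unique molecular identifiers (UMIs, counts of single RNA molecules) per cell, and the wild-type library held 10154 cells with a median of 10219 UMIs. Cells were classed by the sum of listed UMIs per 10000 UMIs of the cell. Epithelial cells had Krt5, Krt14 and Krt15 at 30 or more. They numbered 6767 in the library labelled heterozygous (70.9% of its cells) and 8519 in wild type (83.9%). Krt12, the keratin of differentiated corneal epithelium, reached 60 per 10000 in 477 of these epithelial cells in the library labelled heterozygous (7.05%) and in 8204 in wild type (96.3%). The remaining 6290 and 315 epithelial cells are called Krt12-low. Keratocytes, the fibroblast-type cells of the stroma, had Dcn, Lum and Kera at 50 or more, and numbered 909 and 656. Pax6 itself was at 745 CPM (UMIs per 1000000 UMIs of the class, mitochondrial genes left out) in epithelial cells of the library labelled heterozygous and at 372 CPM in wild type, so its level did not check the genotype label. The keratin sum lay between 20 and 45 per 10000, near its limit, in 353 cells of the library labelled heterozygous and 1676 of wild type, and 33 kept cell barcodes occurred in both libraries.

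RNA released from broken cells enters every droplet, so levels were also read in cells that led a fixed marker list for vessel, nerve or immune cells. There were 1320 of these in the library labelled heterozygous and 215 in wild type. Krt12, which such cells do not make, was at 25.1 CPM in them in the library labelled heterozygous and at 1337 CPM in wild type. Krt12 was also lower in epithelial cells of the library labelled heterozygous (1771 CPM) than in those of wild type (29639 CPM), so these values alone do not compare the amount of free RNA. As a share of the epithelial level of the same library, Aldh3a1 in these cells was at 1.54% in the library labelled heterozygous and 4.74% in wild type, Aqp5 at 1.74% and 3.86%, and Tkt at 6.01% and 6.41%. Levels in these cells are given beside low values.

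Short stretches before the RefSeq transcription start are shown for a gene that was lower in heterozygous epithelial cells as a whole and a gene that was not. The RefSeq table for GRCm38.p6 held 3 of the 5 genes. Capitals mark matches, on either strand, to the TATA motif TATAAA, the GC box GGGCGG bound by Sp1-type factors, the CACCC motif bound by Klf-type factors, and TTCACGC, a core of Pax6 paired-domain sites. Each stretch covers the 250 bases before the start, 5′ to 3′ on the strand of the gene (Tkt, chr14:30548881-30549130, plus strand; Aqp3, chr4:41098184-41098433, minus strand).
Tkt: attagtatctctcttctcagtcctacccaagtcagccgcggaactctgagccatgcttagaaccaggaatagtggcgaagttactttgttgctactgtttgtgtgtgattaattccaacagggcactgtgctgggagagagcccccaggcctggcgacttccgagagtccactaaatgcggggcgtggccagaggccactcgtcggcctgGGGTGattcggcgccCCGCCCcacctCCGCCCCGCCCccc
Aqp3: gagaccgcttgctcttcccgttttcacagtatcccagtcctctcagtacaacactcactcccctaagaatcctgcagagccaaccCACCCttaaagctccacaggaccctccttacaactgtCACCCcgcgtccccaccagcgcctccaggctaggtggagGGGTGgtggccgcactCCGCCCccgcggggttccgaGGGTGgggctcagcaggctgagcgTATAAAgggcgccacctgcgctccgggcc
The RefSeq start of Tkt lies inside the gene span given above. The Tkt stretch held 3 GC boxes, a pair of which share a base, and 1 CACCC match. The Aqp3 stretch held 1 TATAAA, 1 GC box and 4 CACCC matches. Among 32851 mouse promoter stretches of this length, 12.4% held TATAAA, 32.7% GGGCGG, 52.0% CACCC and 1.03% TTCACGC. The Pax6 core was found in neither stretch printed here, which says only that these letters are not in this window.

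Over all epithelial cells, Aldh3a1, Tkt and Aqp5 were far lower in the library labelled heterozygous, Clu was slightly lower, and Aqp3 was level. Aldh3a1 was at 2656 CPM in the library labelled heterozygous and at 10808 CPM in wild type, a ratio of 0.246 (95% exact interval 0.245 to 0.247). Tkt was at 1294 CPM in the library labelled heterozygous and 5702 CPM in wild type (ratio 0.227, 0.226 to 0.228). Aqp5 showed the widest gap of the 5 genes in these cells, with 556 CPM in the library labelled heterozygous and 4726 CPM in wild type (ratio 0.118, 0.117 to 0.119). Clu was at 116 CPM against 151 CPM in wild type, a ratio of 0.770 (0.752 to 0.788). Aqp3 was at 1768 CPM in the library labelled heterozygous and 1753 CPM in wild type (ratio 1.01, 1.00 to 1.01), but fell below wild type, at ratios of 0.803 and 0.793, when edgeR or DESeq2 factors replaced the class total. Those factors moved each ratio over all epithelial cells by -0.33 and -0.35 on the log2 scale, and ratios within Krt12-high or Krt12-low cells by less. Genes were counted as apart at 2-fold or more, provided 1 of the libraries reached 20 CPM. By this count 3 of the 5 genes were lower and 0 higher, where 6.45% of 7086 genes were lower and 13.2% higher.

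Within Krt12-high cells, which were few in the library labelled heterozygous, Aldh3a1 and Tkt were near their wild-type levels and Aqp5 was not. Aldh3a1 was at 12567 CPM in Krt12-high cells of the library labelled heterozygous and at 11034 CPM in those of wild type. The ratio of 1.14 (1.13 to 1.15) became 0.998 with edgeR factors, so its direction depends on the scaling. Tkt was at 5503 CPM and 5826 CPM in the same order (ratio 0.944, 0.936 to 0.953; 0.827 with edgeR factors). Aqp5, in contrast, was at 2470 CPM in Krt12-high cells of the library labelled heterozygous and 4848 CPM in those of wild type, a ratio of 0.509 (0.502 to 0.516). Aqp3 was at 1433 CPM in Krt12-high cells of the library labelled heterozygous and 1758 CPM in wild type (ratio 0.815, 0.800 to 0.830), and Clu at 111 CPM and 151 CPM (ratio 0.737, 0.689 to 0.787). None of the 5 genes was 2-fold apart in Krt12-high cells, where 8.53% of 6662 genes were higher and 5.18% lower. Aqp5 lay at the limit, and was over 2-fold lower with edgeR factors (0.446), DESeq2 factors (0.446), a Krt12 limit of 30 (0.481), cells carrying Xist alone (0.497) or the highest doublet scores left out (0.482). The doublet scoring had not worked on these libraries, so the last setting does not check for doublets.

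**Figure D1:**
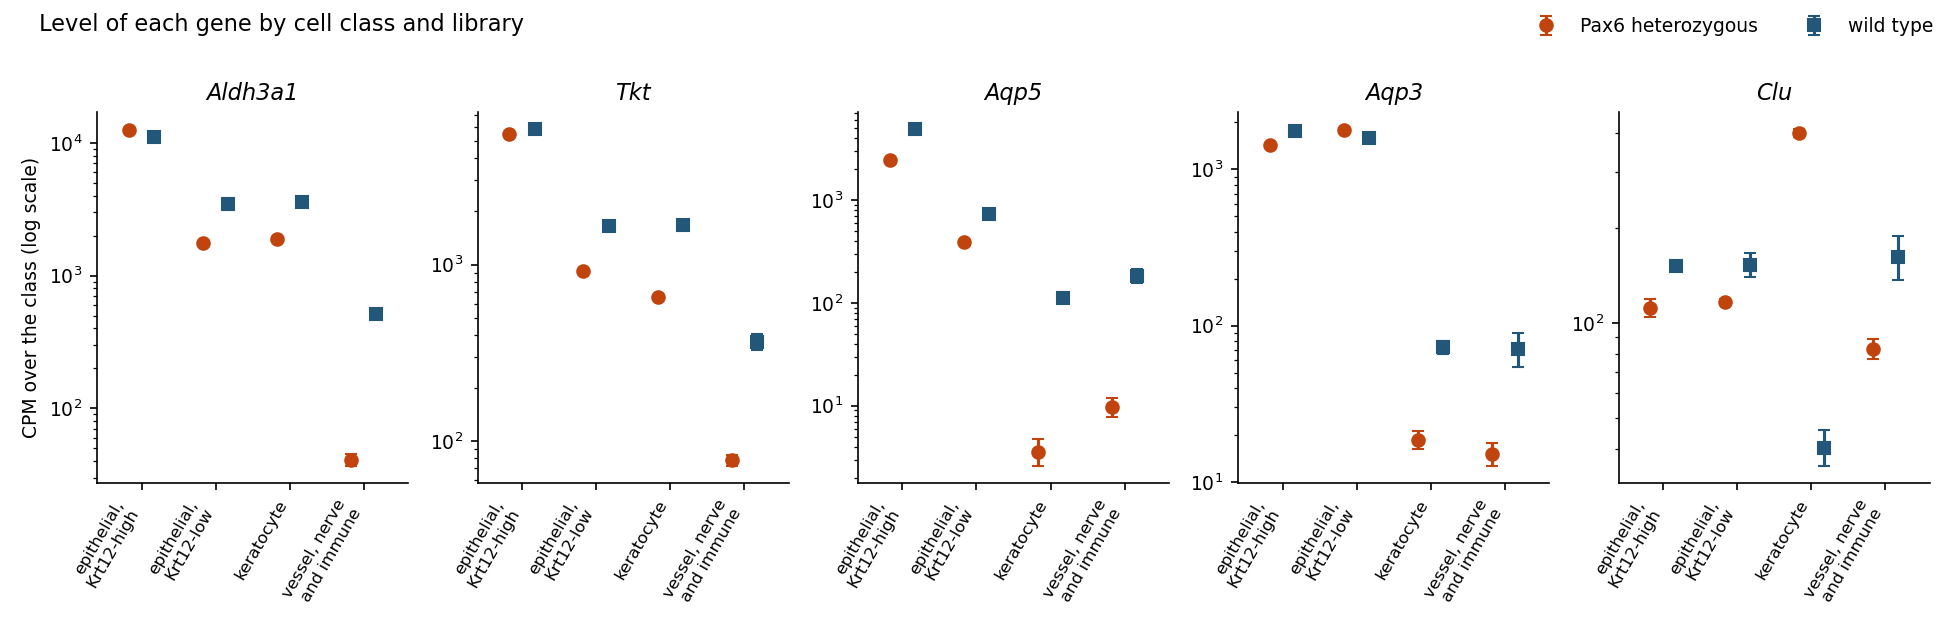
CPM of each gene (log scale) in 4 cell classes, with circles for the library labelled heterozygous and squares for wild type. Bars are 95% Poisson intervals of the count in 1 library each. In Krt12-high cells the circles and squares of Aldh3a1 and Tkt lie close together, while Aqp5 is at 2470 and 4848 CPM. In keratocytes Clu is at 399 and 40.3 CPM.

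In Krt12-low epithelial cells, Aldh3a1, Tkt and Aqp5 were lower in the library labelled heterozygous, by an amount that depended on the Krt12 limit. Aldh3a1 was at 1774 CPM in the library labelled heterozygous and 3453 CPM in wild type (ratio 0.514, 0.504 to 0.524). Tkt was at 920 CPM and 1654 CPM in that order (ratio 0.556, 0.541 to 0.572), and Aqp5 at 386 CPM and 731 CPM (ratio 0.528, 0.506 to 0.550). Their levels in vessel, nerve and immune cells of wild type, a measure of free RNA, were 513 CPM for Aldh3a1, 365 CPM for Tkt and 183 CPM for Aqp5, and subtracting each library's own values moved the ratios to 0.589, 0.653 and 0.686. Aqp3 was at 1797 CPM in Krt12-low cells of the library labelled heterozygous and 1590 CPM in those of wild type (ratio 1.13, 1.10 to 1.16), and Clu at 117 CPM and 153 CPM (ratio 0.764, 0.699 to 0.837). None was 2-fold apart, where 5.86% of 7027 genes were higher and 4% lower. With a Krt12 limit of 120 per 10000 the ratios were 0.291 for Aldh3a1, 0.274 for Tkt and 0.381 for Aqp5, all past 2-fold, and with a limit of 30 they were 0.708, 0.684 and 0.743. Aldh3a1 also passed 2-fold with edgeR (0.497) and DESeq2 (0.488) factors. When the class levels of the library labelled heterozygous were weighted by the wild-type share of UMIs from Krt12-high cells (its own share was 8.18%), the epithelial ratios became 1.13 for Aldh3a1, 0.941 for Tkt, 0.509 for Aqp5, 0.824 for Aqp3 and 0.738 for Clu.

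Epithelial cells were also grouped by Krt12 level, with Krt12 left out of the total. For Aldh3a1, Tkt and Aqp5 the libraries lay closer together in cells with Krt12 above 0 and below 60 per 10000 than over all Krt12-low cells. These bins leave out cells with Krt12 at 0. Among cells with Krt12 above 0 and under 20 per 10000, Aldh3a1 was at 1967 CPM in 1032 cells of the library labelled heterozygous and 2172 CPM in 176 wild-type cells. From 20 to 60 it was at 5351 CPM and 5359 CPM, and from 60 to 200 at 11682 CPM and 12066 CPM, so the libraries were close in each of these bins (ratios 0.906, 0.998 and 0.968). At 200 to 400 the ratio was 1.17, and at 400 and over it was 1.82. That top bin held only 27 cells of the library labelled heterozygous and 1292 of wild type, and wild-type Aldh3a1 was lower there (8508 CPM) than in the bin below (12209 CPM). Aqp5 climbed with Krt12 in both libraries, from 437 to 7971 CPM across the 5 bins in the library labelled heterozygous and from 470 to 8853 CPM in wild type. Its ratios were 0.931, 0.970, 0.729, 0.737 and 0.900 from the lowest bin to the highest. Tkt ratios lay between 0.777 and 1.45, Aqp3 ratios between 0.899 and 1.21, and Clu ratios between 0.779 and 0.901. Krt12 was at 0 in 5157 epithelial cells of the library labelled heterozygous and in 0 of wild type, where free Krt12 reached the other cell types too. Those 5157 cells carried 1642 CPM of Aldh3a1, 853 CPM of Tkt, 356 CPM of Aqp5 and 1746 CPM of Aqp3. Wild-type vessel, nerve and immune cells had a median Krt12 of 12.6 per 10000. Wild-type cells that make no Krt12 can therefore fall in the lowest bins, so the cells compared there may be unlike.

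**Figure D2:**
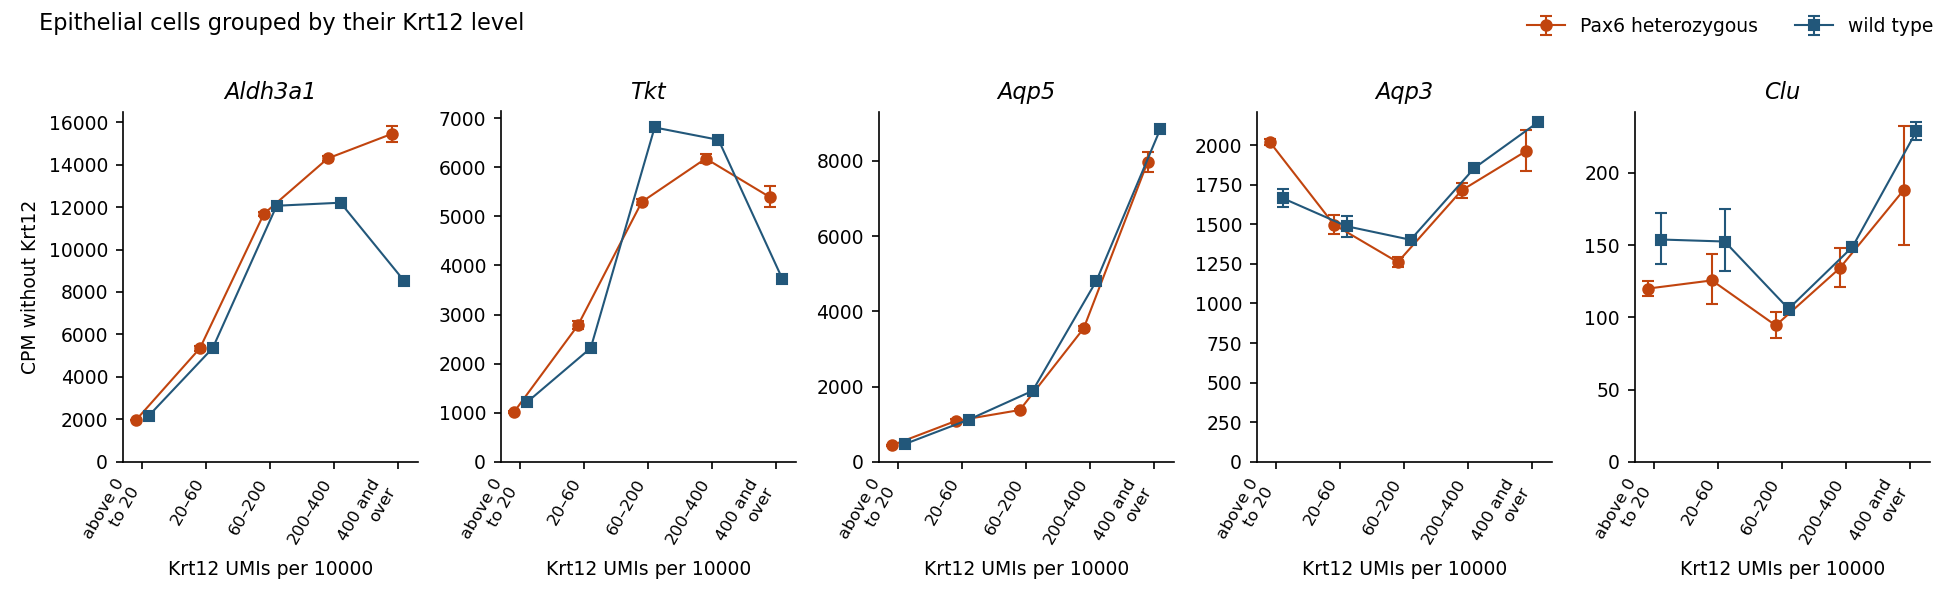
CPM of each gene, Krt12 left out of the total, in epithelial cells grouped by their Krt12 UMIs per 10000, with circles for the library labelled heterozygous and squares for wild type. Bars are 95% Poisson intervals, and the bin of 400 and over holds 27 and 1292 cells. Aldh3a1 lines meet in the 3 lowest bins, and Aqp5 climbs with Krt12 in both libraries.

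Over single cells, Aldh3a1 was high in nearly every Krt12-high cell of both libraries. Its median was 122 per 10000 UMIs in Krt12-high cells of the library labelled heterozygous, with 5% of cells under 44.3, and 104 per 10000 in those of wild type, with 5% under 30.5. In Krt12-low cells the medians were 12.2 and 19.8 per 10000. A UMI of Aldh3a1 was found in 96.4% of Krt12-low cells of the library labelled heterozygous, at a median depth of 13975 UMIs, against 18.9% of its vessel, nerve and immune cells at 6361 UMIs. After each cell was thinned to 3000 UMIs these shares were 91.2% and 9.45%. In wild type the thinned shares were 97.1% of Krt12-low cells and 66.0% of vessel, nerve and immune cells, where depths were 9472 and 3882 UMIs.

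Some Krt12-low cells nevertheless had much Aldh3a1. At least 50 per 10000 was reached in 167 of 6290 Krt12-low cells of the library labelled heterozygous and 63 of 315 in wild type. Other genes were read in these cells after this split was seen. The 167 cells had a median Krt12 of 0.301 per 10000, but Krt12 summed over them was at 1161 CPM. Some of them therefore held Krt12 well above that median. In the 6123 Krt12-low cells with less Aldh3a1, Krt12 was at 61.6 CPM. Aqp5 was at 2888 CPM in the 167 cells, against 287 CPM in the 6123 others. Tkt was at 1441 CPM and 899 CPM in the same pair of groups, so Aqp5 stood out more than Tkt did. Krt4, a keratin of mucosal epithelia, was at 2514 CPM and 895 CPM. In wild type, Krt4 was at 1699 CPM in the 63 cells and 711 CPM in the 252 others, and Aqp5 at 1775 CPM and 395 CPM.

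**Figure D3:**
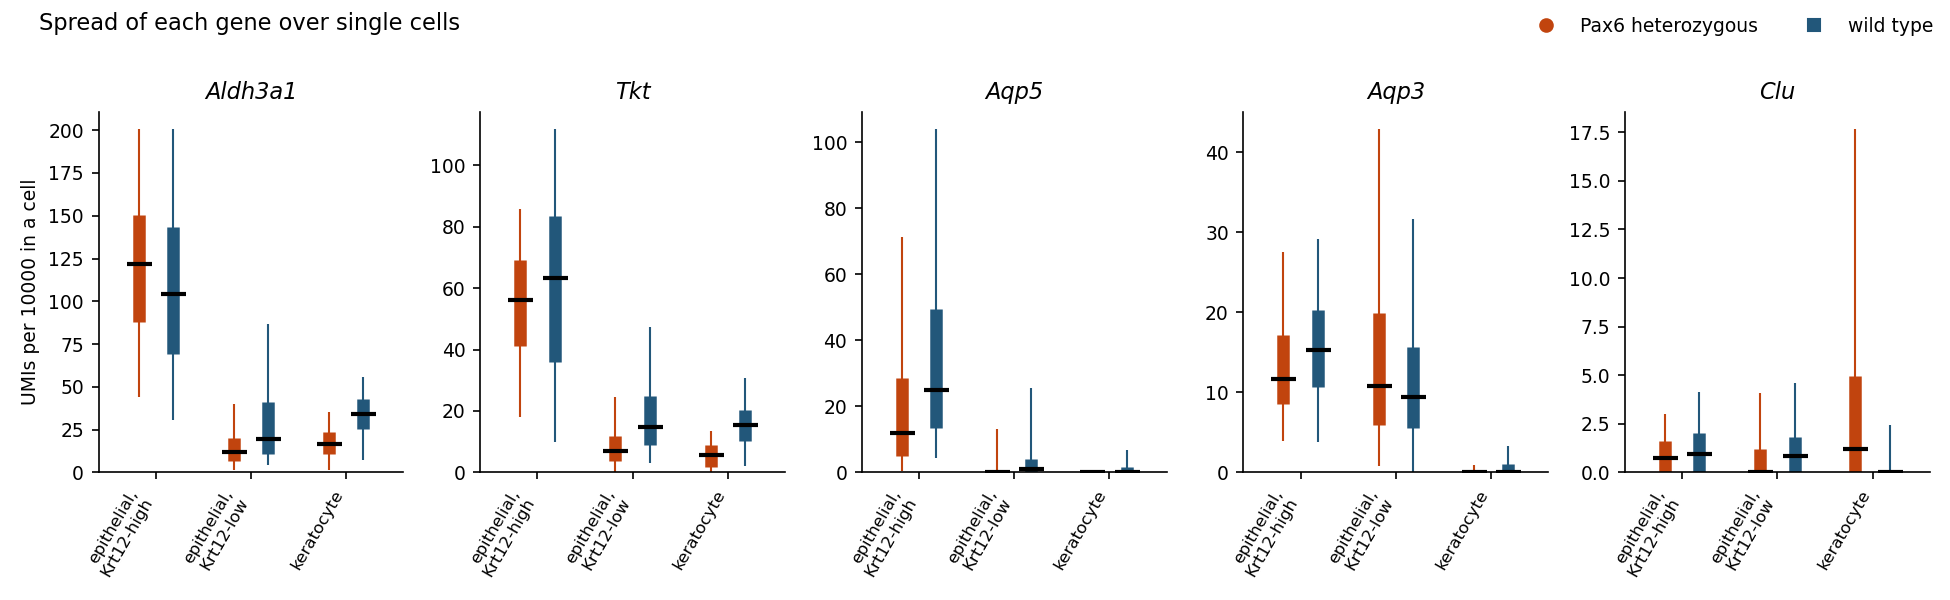
UMIs per 10000 in single cells of 3 classes, with the library labelled heterozygous left of wild type in each pair. Thick bars span the middle 50% of cells, thin lines 5% to 95%, and black ticks mark medians. Aldh3a1 medians are 122 and 104 in Krt12-high cells and 12.2 and 19.8 in Krt12-low cells.

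Within Krt12-high cells, Aqp5 was high where Krt14, a keratin of basal cells, was low. Tertiles of Krt14 could not be compared, since 34.4% of wild-type Krt12-high cells held no Krt14 UMI, and fixed limits were set after that was seen. Aqp5 was at 5441, 4560, 2074 and 1063 CPM in Krt12-high cells of the library labelled heterozygous with Krt14 at 0, under 10, at 10 to 50, and at 50 or more per 10000. In wild type it was at 6758, 5303, 2240 and 1250 CPM, so Aqp5 was lower with more Krt14 in both libraries. The ratios within these 4 bins were 0.805, 0.860, 0.926 and 0.850, closer to 1 than the 0.509 over all Krt12-high cells. The cells lay differently over the bins: 26.0% of Krt12-high cells of the library labelled heterozygous had Krt14 at 50 or more, and 2.02% of those in wild type. The part of these shares in the Aqp5 difference was not tested. Krt14 at 0 was found in 22 and 2824 of these cells. Tkt was at 4736, 4368, 5935 and 5853 CPM in the same bins of the library labelled heterozygous and at 4473, 5899, 7108 and 6684 CPM in wild type. Aldh3a1 ratios were 1.31, 1.04, 1.03 and 1.01.

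Aqp5 and Tkt also differed with Krt13, a keratin of superficial cells, at a limit chosen after the data were seen. With Krt13 at 10 or more per 10000, Aqp5 was at 6063 CPM in 46 Krt12-high cells of the library labelled heterozygous and 10598 CPM in 605 of wild type. With less Krt13 it was at 1865 CPM and 3925 CPM, so Aqp5 was lower in the library labelled heterozygous on either side of this limit. Tkt was at 3139 CPM in the Krt13-positive cells of the library labelled heterozygous and 1572 CPM in those of wild type, and at 5901 CPM and 6510 CPM in the rest. Across the 8204 wild-type Krt12-high cells the log2 levels of Tkt and Aqp5 had a Pearson correlation of -0.31, those of Aldh3a1 and Tkt of 0.697, and those of Aqp5 and Krt12 of 0.705. In the 477 cells of the library labelled heterozygous the values were -0.01, 0.771 and 0.685. These are descriptions over cells of 1 library, which share its depth and free RNA.

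Within Krt12-low cells, Aldh3a1, the water channels and Clu were lowest where the limbal gene Gpha2 was high and highest where Krt4 and Krt19 were. Gpha2, which marks quiescent limbal basal cells in mouse, was at 5 or more per 10000, with Krt4 and Krt19 under 20, in 1686 cells of the library labelled heterozygous and 177 of wild type. Aqp5 was at 8.86 CPM in these cells of the library labelled heterozygous and 100.1 CPM in wild type, both below their levels in vessel, nerve and immune cells (9.69 CPM and 183 CPM), so neither could be told from free RNA. Aldh3a1 was at 1195 CPM and 2409 CPM, Aqp3 at 1003 CPM and 1123 CPM, and Clu at 54.4 CPM and 104 CPM. Krt4 and Krt19, keratins of the conjunctiva, reached 20 per 10000 with Gpha2 under 5 in 875 and 30 cells. There Aqp5 was at 1620 CPM in the library labelled heterozygous and 2583 CPM in wild type, Aqp3 at 3240 CPM and 2894 CPM, and Clu at 253 CPM and 258 CPM. Aldh3a1 was at 2555 CPM and 5631 CPM in those cells. Tkt went the other way, with 1138 CPM and 1947 CPM in the Gpha2-positive cells and 468 CPM and 479 CPM in the cells with Krt4 and Krt19. The conjunctiva had been dissected away only in part, and these limits were chosen after the data were seen.

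In keratocytes, Clu was higher in the library labelled heterozygous and the corneal enzymes were lower. Clu was at 399 CPM in 909 keratocytes of the library labelled heterozygous and at 40.3 CPM in 656 of wild type, a ratio of 9.91 (8.69 to 11.3). Of these keratocytes, 65.0% had a Clu UMI in the library labelled heterozygous and 12.3% in wild type, at median depths of 14866 and 9361 UMIs. Thinned to 3000 UMIs the shares were 41.8% and 8.35%. Schwann-like cells, which gave 4.66% of cells with a UMI in the library labelled heterozygous and 0 of 57 in wild type (up to 6.27% by the Clopper-Pearson interval), served as background, and their median depths were 4722 and 2611 UMIs. Wild-type mural-like cells had Clu at 33.8 CPM (13.6 to 69.6), and 7.69% of 39 thinned cells had a UMI. The wild-type keratocyte level of Clu (interval 35.3 to 45.8 CPM) lay inside that mural-like interval. It lay above the Schwann-like level of wild type (0 UMIs, up to 21.9 CPM). Whether it stood above background thus depended on the cells taken as background. By a fold of at least 2, Clu was the only 1 of the 5 genes that was higher in keratocytes, where 8.4% of 7038 genes were higher and 6.59% lower.

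Kera, a proteoglycan of corneal stroma, was used to divide the class after the data were seen. It was under 5 per 10000 in 311 of 909 keratocytes of the library labelled heterozygous and in 82 of 656 of wild type. Clu was at 217 CPM in 438 cells of the library labelled heterozygous with Kera at 40 or more and at 11.4 CPM in 526 such cells of wild type, a ratio of 19.0 (14.6 to 25.1). With Kera under 5 it was at 603 CPM and 344 CPM, a ratio of 1.75. From 20 to 40, wild type had 0 Clu UMIs in 26 cells, and the 563 CPM of the library labelled heterozygous was at least 26.9-fold higher than 3 UMIs over that bin would give. The difference was therefore wider in cells with Kera at 20 or more than in cells with Kera under 5. Clu was also plentiful in vascular endothelial-like cells, at 250 CPM in the library labelled heterozygous and 354 CPM in wild type. The 7 vascular markers, none at 0 in either library, summed to 54.6 CPM in keratocytes of the library labelled heterozygous and 214 CPM in those of wild type, most of it Kdr. With Kera under 5 the sums were 58.8 CPM and 26.5 CPM. The single vascular markers went in both directions over all keratocytes. Pecam1 was at 8.02 CPM and 3.12 CPM, Flt1 at 5.00 CPM and 1.04 CPM, Cdh5 at 1.51 CPM and 1.38 CPM, and Emcn at 0.556 CPM and 0.346 CPM. Kdr was at 38.7 CPM and 200 CPM, Selp at 0.556 CPM and 6.92 CPM, and Vwf at 0.238 CPM and 0.519 CPM. The 6 corneal endothelial markers, none at 0 in either library, summed to 777 CPM and 345 CPM. The collagen gene Col8a1 made the largest difference among them (317 CPM and 25.6 CPM), and the endothelial transporter Slc4a11 was at 2.86 CPM and 1.38 CPM. With Kera at 40 or more, Col8a1 was at 169 CPM and 5.33 CPM. The part of these markers in the Clu difference was not tested.

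**Figure D4:**
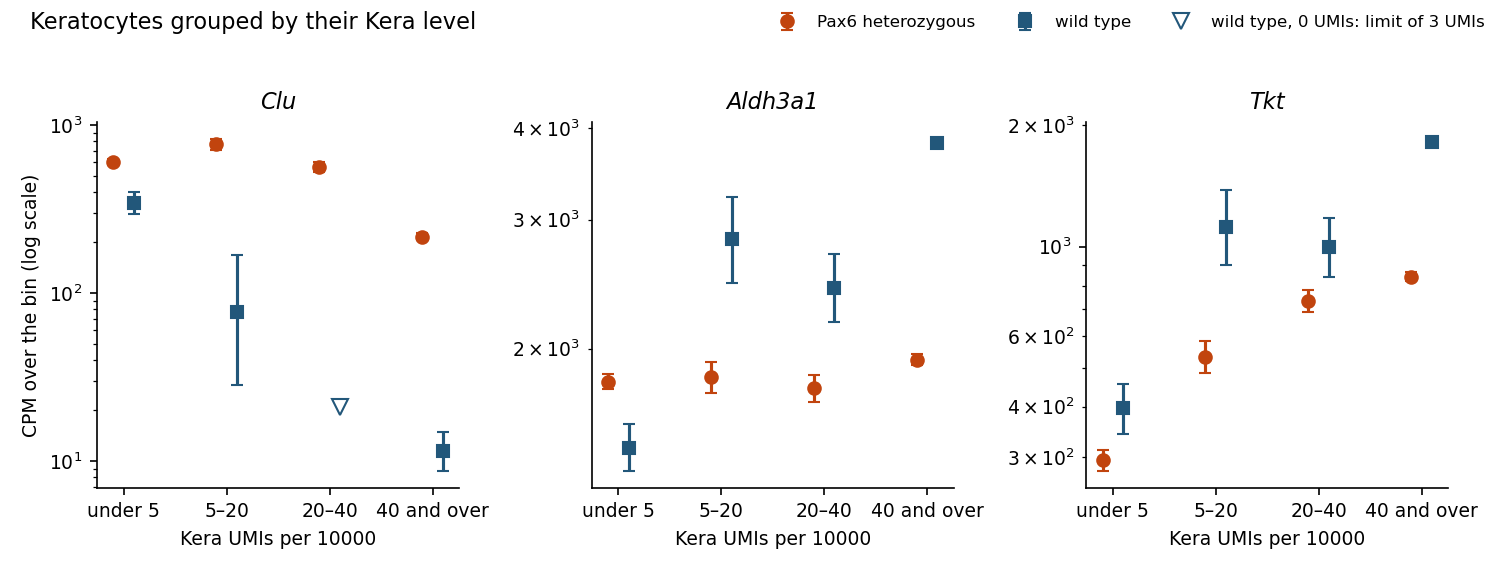
CPM of Clu, Aldh3a1 and Tkt (log scales) in keratocytes grouped by Kera UMIs per 10000, with circles for the library labelled heterozygous and squares for wild type. Bars are 95% Poisson intervals, and the open triangle marks the limit of 3 UMIs where wild type had 0. Clu is at 217 and 11.4 CPM where Kera is at 40 or more, and at 603 and 344 CPM where it is under 5.

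Aldh3a1 and Tkt were also keratocyte genes in both libraries, beyond what free epithelial RNA gave. Aldh3a1 was at 1872 CPM in keratocytes of the library labelled heterozygous and 3565 CPM in those of wild type (ratio 0.525, 0.515 to 0.535). In vessel, nerve and immune cells it was at 40.9 CPM and 513 CPM. For each Krt12 UMI, wild-type keratocytes held 3.62 UMIs of Aldh3a1, whereas wild-type epithelial cells held 0.365 and vessel, nerve and immune cells 0.383, both far below keratocytes. Tkt was at 655 CPM in keratocytes of the library labelled heterozygous and 1666 CPM in those of wild type (ratio 0.393, 0.381 to 0.405), and held 1.69 UMIs per Krt12 UMI in wild-type keratocytes against 0.192 in epithelial cells. With the levels in vessel, nerve and immune cells subtracted, the ratios were 0.600 for Aldh3a1 and 0.443 for Tkt. Where Kera was at 40 or more, Aldh3a1 was at 1932 CPM in the library labelled heterozygous and 3813 CPM in wild type. Where Kera was under 5, it was at 1804 CPM and 1467 CPM (ratio 1.23), so the lower Aldh3a1 was not seen in those cells. Tkt was at 842 CPM and 1817 CPM where Kera was at 40 or more, and at 294 CPM and 397 CPM where it was under 5.

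Aqp5 and Aqp3 in keratocytes could not be told from free RNA. Aqp5 was at 3.57 CPM in keratocytes of the library labelled heterozygous and 112 CPM in those of wild type, and at 9.69 CPM and 183 CPM in vessel, nerve and immune cells. Per Krt12 UMI, wild-type Aqp5 was 0.114 in keratocytes, 0.137 in vessel, nerve and immune cells and 0.159 in epithelial cells. Aqp3 was at 18.7 CPM and 72.9 CPM in keratocytes, and at 15.1 CPM and 70.5 CPM in vessel, nerve and immune cells. By size alone Aldh3a1 stayed within 2-fold in keratocytes, and Tkt, Aqp5 and Aqp3 were lower.

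Clu differed widely among the remaining cell types. It was at 250 CPM in 294 vascular endothelial-like cells of the library labelled heterozygous and 354 CPM in 67 of wild type. Schwann-like cells had 9.93 CPM in the library labelled heterozygous and 0 UMIs in wild type, mural-like cells 10.1 CPM and 33.8 CPM, immune-like cells 7.92 CPM and 0 UMIs, and lymphatic endothelial-like cells 67.1 CPM and 154 CPM. In 16 corneal endothelial-like cells of the library labelled heterozygous Clu was at 535 CPM, while wild type held 1 such cell with 0 UMIs. Aldh3a1 lay between 26.8 and 54.5 CPM over vascular endothelial, mural, Schwann and immune-like cells of the library labelled heterozygous and between 443 and 721 CPM over those of wild type. Lymphatic endothelial-like cells had 33.9 CPM and 214 CPM. A further 500 cells of the library labelled heterozygous and 730 of wild type passed no limit and led no list, and they carried 993 CPM of Aldh3a1 in the library labelled heterozygous and 6447 CPM in wild type. Clu was at 406 CPM and 91.6 CPM in them, and Krt12 at 1389 CPM and 13868 CPM. Their epithelial marker list had medians of 34.6 and 167 per 10000, against 19.7 in wild-type vessel, nerve and immune cells. The wild-type cells of this group can therefore not be read as a non-epithelial cell type.

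Other genes of the same families did not follow the 5 genes as a group. Of 19 other aldehyde dehydrogenases, 5 passed 20 CPM in epithelial cells. Aldh2, the mitochondrial enzyme, was higher (134 CPM in the library labelled heterozygous, 61.7 CPM in wild type), and Aldh1a1 (25.9 CPM and 106 CPM) and Aldh3b2 (31.6 CPM and 71.9 CPM) were lower. Of 11 other genes of the pentose phosphate pathway, 7 passed and none was 2-fold apart, with a median log2 ratio of 0.00. Taldo1, transaldolase, which shares the non-oxidative branch with Tkt, was at 410 CPM in the library labelled heterozygous and 432 CPM in wild type. G6pdx, which opens the oxidative branch, was at 44.2 CPM and 55.3 CPM. The median log2 ratio over all 7086 genes was 0.17, that of the 5 aldehyde dehydrogenases -0.25 and that of Aldh3a1, Tkt, Aqp5, Aqp3 and Clu -2.02. None of 10 other aquaporins reached 20 CPM in epithelial cells. In keratocytes Aqp1, the water channel of that cell type, was at 813 CPM in the library labelled heterozygous and 1631 CPM in wild type.

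Enzymes that have been called crystallins in cornea or lens went in both directions. Of 12 listed, 9 passed in epithelial cells, and 2 were at least 2-fold lower, Gsta4 (2132 CPM in the library labelled heterozygous, 5763 CPM in wild type) and Aldh1a1, which the aldehyde dehydrogenase list also holds. The glycolytic enzymes Gapdh (706 CPM and 367 CPM), Pgk1 (154 CPM and 77.2 CPM) and Ldha (650 CPM and 353 CPM) stayed just under 2-fold. The median log2 ratio of this list was 0.16. Gsta4 remained lower within Krt12-high cells (2242 CPM and 5848 CPM), where Aldh3a1 and Tkt did not. Among 10 clusterin receptors and chaperones, 5 passed. Hspb1 (1509 CPM and 3633 CPM) and Cryab (48.7 CPM and 125 CPM), both small heat shock proteins inside cells, were lower, Apoe (454 CPM and 92.1 CPM) was higher, and the receptor Lrp1 was at 47.4 CPM and 46.6 CPM. That list's median was 0.02. Of 16 genes of corneal differentiation, 12 passed, with 7 lower, Pax6 alone higher, and a median of -1.76.

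**Figure D5:**
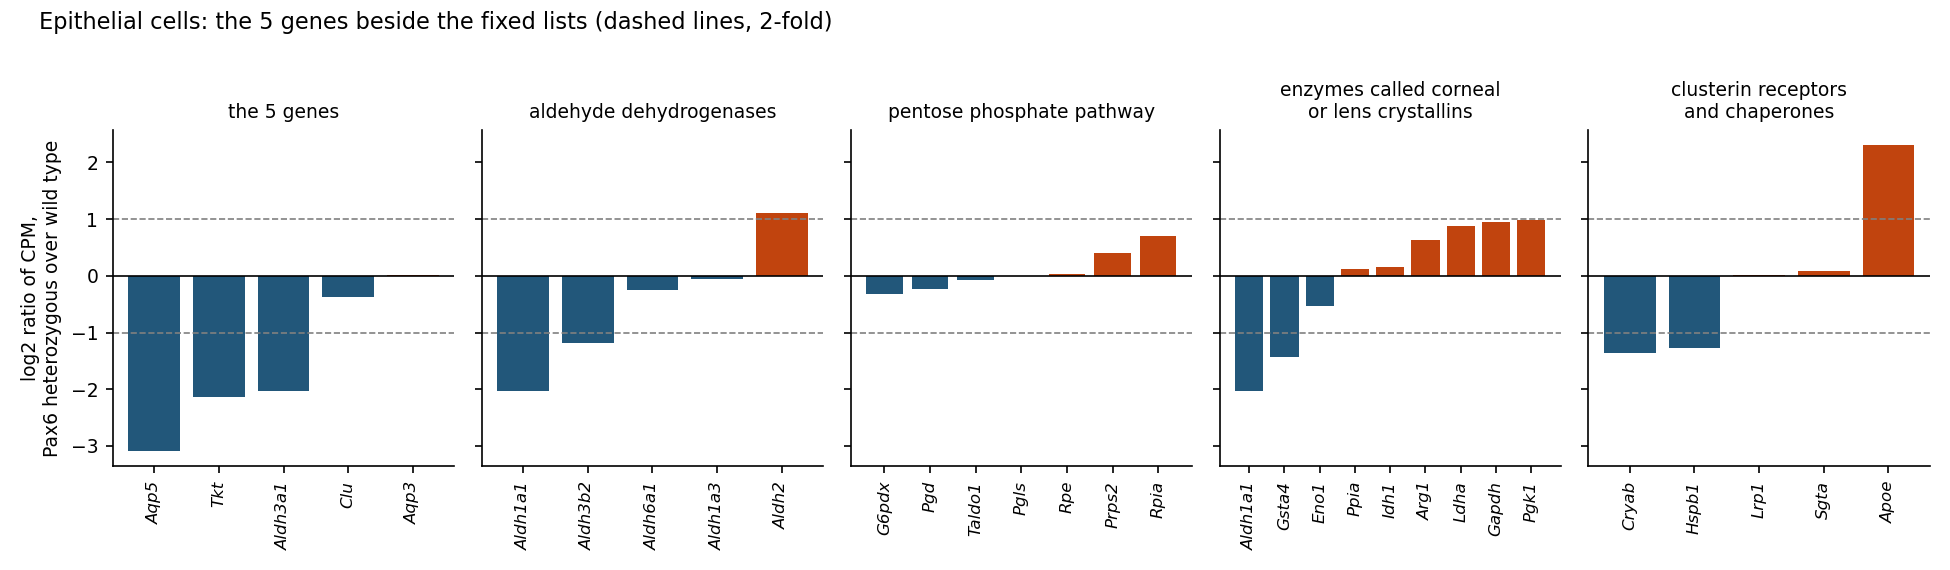
Log2 ratio of CPM in epithelial cells, library labelled heterozygous over wild type, for the 5 genes and for each list member with at least 20 CPM in either library. Orange bars lie above 0 and blue bars below it, and dashed lines mark 2-fold. Aldh3a1, Tkt and Aqp5 fall below -1, and the 7 pentose phosphate pathway genes lie between the lines.

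Across 16 groups of cell class and library with at least 50 cells, the log2 level of Aldh3a1 was most like that of Tkt (Pearson correlation 0.986), Adh1 (0.966) and Rasgrf1 (0.946), of 7989 genes compared. The genes most like Tkt were Aldh3a1, Adh1 (0.949) and Rasgrf1 (0.937). Aqp5 was most like Erich5 (0.969), Dapl1 (0.964) and Paqr5 (0.962), and its correlation with Krt12 was 0.939. Among the genes most like Aqp3 were the epithelial genes Calml3 (0.989) and Krt5 (0.985). Clu had no close match, with 0.879 for Trim16, 0.862 for Ccser1 and 0.846 for Nos1ap. These correlations are descriptions, and groups of 1 library share its free RNA.

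Cells were also divided by Xist, which female cells express, and by Y-linked genes. Xist without a Y-linked UMI was found in 4409 of its cells and a Y-linked UMI without Xist in 3759, whereas wild type had 9603 cells with Xist alone and 0 with Y-linked UMIs alone. Krt12-high cells made up 10.3% of epithelial cells with Xist alone and 3.27% of those with Y-linked UMIs alone in the library labelled heterozygous. Over all epithelial cells Aldh3a1 was at 3057 CPM and 2170 CPM in these groups, both far below the 10812 CPM of wild-type cells with Xist alone. Within Krt12-high cells Aqp5 was at 2410 CPM with Xist and 3082 CPM with Y-linked UMIs, against 4855 CPM in wild type. Keratocyte Clu was at 323 CPM and 415 CPM, against 40.0 CPM, so the difference from wild type was present in cells of either kind.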

How the data were processed

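Each deposited matrix held raw counts, as unique molecular identifiers (UMIs) for each gene in each cell, not normalized. Matrices were made with Cell Ranger 8.0.0, per the file headers, on GRCm38, per the submitters' processing notes. No deposited barcode held under 500 UMIs, and how barcodes were chosen is not given in the sources used here. Deposited totals were 131567589 UMIs in 10574 barcodes (library labelled heterozygous) and 124540296 UMIs in 11354 barcodes (wild type). Cells were kept from 500 genes and 1000 UMIs upward if no more than 20% of UMIs were mitochondrial. Doublets were not removed, because Scrublet (scanpy 1.11.5) marked only 38 and 3 cells and so had not worked. UMIs were summed per class and library and scaled to CPM without mitochondrial genes. Ratios carry 95% exact conditional binomial intervals, levels Poisson and shares Clopper-Pearson intervals, and PCR and cells of 1 animal are not independent, so these cover counting error only. No test across replicates was possible. A gene was counted as higher or lower at 2-fold among genes with 20 CPM in either library. This rule was tested only on simulated counts with known folds and counting error. The simulation held no variation between animals or cells, so it does not test the differences between these libraries. Scaling alternatives used edgeR and DESeq2. The genes named were the 5 genes, list members past 20 CPM and, per gene, the 3 most correlated genes, 1 of which is not reported here. The genes, classes and lists were chosen with earlier results of these data known.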

Additional observations from a re-analysis of the deposited data

Results flagged for a closer look

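Clu moved in opposite directions between cell classes under the same contrast of the library labelled heterozygous with wild type. Its ratio was 9.91 in keratocytes, 0.737 in Krt12-high and 0.764 in Krt12-low epithelial cells, and with 1 library per genotype the difference between classes was not tested. Aqp3 had a ratio of 1.13 in Krt12-low epithelial cells and 0.256 in keratocytes, a difference that was also not tested. The keratocyte values of Aqp3, 18.7 CPM and 72.9 CPM, lay beside 15.1 CPM and 70.5 CPM in vessel, nerve and immune cells of the same libraries.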

How the results depend on the processing

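No paired analysis was possible because each genotype had 1 library, and the same fact leaves no replicate to leave out. The main epithelial ratios of the library labelled heterozygous over wild type were 0.246 for Aldh3a1, 0.227 for Tkt, 0.118 for Aqp5, 1.01 for Aqp3 and 0.770 for Clu, and alternatives are given in that order of genes. With mitochondrial genes in the total they were 0.243, 0.225, 0.117 and 0.998, Clu staying within its interval, and with Krt12 left out of the total 0.239, 0.221, 0.114, 0.980 and 0.748. An epithelial limit of 100 gave 0.302, 0.362, 0.0754, 0.925 and 0.614, and a mean over cells gave 0.218, 0.207, 0.109, 0.968 and 0.736. Subtracting all other cells gave 0.442, 0.445, 0.187 and 1.51, and no ratio for Clu, whose level fell below 0. In wild type those other cells had Krt12 at 11272 CPM, against 1337 CPM in vessel, nerve and immune cells. Their levels are thus not those of free RNA alone, and these ratios are not ratios corrected for it. Genes 2-fold higher and lower numbered 936 and 457, against 1759 and 708 from 5 CPM, 7244 and 3144 with no filter and a floor of 3 UMIs, and 1729 and 883 at 1.5-fold. Factors from edgeR gave 0.196, 0.181, 0.0938, 0.803 and 0.613, and from DESeq2 0.193, 0.179, 0.0926, 0.793 and 0.606. Cells with Xist alone gave 0.283, 0.242, 0.138 and 1.05, and cells with Y-linked UMIs alone 0.201, 0.206, 0.0959 and 0.974. A stricter cell filter gave 0.247 for Aldh3a1 and 0.229 for Tkt, and leaving out the 5% of cells with the highest doublet scores gave 0.243 for Aldh3a1 and 0.113 for Aqp5. Those scores came from the Scrublet run that had not worked. Leaving out cells by them, here and within the Krt12 classes, therefore does not check for doublets. The following alternatives, and all those for keratocytes, were chosen after seeing the data. Adding Krt12-high cells that led no list gave 0.248, 0.229, 0.119 and 1.02. Subtracting vessel, nerve and immune cells gave 0.254 for Aldh3a1, 0.120 for Aqp5 and 1.04 for Aqp3. An epithelial limit of 15 gave 0.247 for Aldh3a1. Weighting by the wild-type share of Krt12-high cells reversed Aldh3a1, to 1.13, and gave 0.941, 0.509, 0.824 and 0.738. That weighting rests almost wholly on the Krt12-high class, so its values nearly repeat the ratios within that class. Within Krt12-high cells the Aldh3a1 ratio was 1.14, but 0.998 with edgeR or DESeq2 factors, so its direction there depends on the scaling. The part of the Krt12-high share in the epithelial ratios was not tested. Within Krt12-low cells, 2-fold was also passed by Tkt (0.494) and just by Aldh3a1 (0.500) in cells with Xist alone, and by Aqp5 in cells with Y-linked UMIs alone (0.464) and without the highest doublet scores (0.499), and except for the Krt12 limits the alternatives within Krt12-high and Krt12-low cells were chosen after seeing the data. Clu in keratocytes, 9.91 in the main comparison, was 8.0 in cells with Xist alone, 19.0 with Kera at 40 or more, 1.75 with Kera under 5, and 15.1 after subtracting mural, Schwann and immune-like cells. Aqp3 in keratocytes reversed, to 1.52, when vessel, nerve and immune cells were subtracted. The subtracted 15.1 CPM and 70.5 CPM were close to the keratocyte levels of 18.7 CPM and 72.9 CPM. That ratio therefore rests on small remainders and gives no direction for Aqp3.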
